A study of Solanum tuberosum with 12 samples.

Results

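The PR-1 family of pathogenesis-related proteins was followed in potato leaves through 4 transcripts, out of 6438 transcripts listed at either age. They are PGSC0003DMG400005109 (product name PR-1), PGSC0003DMG400005111 and PGSC0003DMG400005113 (both PR1 protein) and PGSC0003DMG400005112 (Basic PR-1 protein). They were taken by identifier because they are listed at both ages and because the effect of heat on them has opposite signs at 3 and at 8 weeks. The levels and heat effects of these 4 transcripts are therefore a description, with no test. The modelled lengths are 860 bases for PGSC0003DMG400005111 (called the long PR1 transcript here), 339 bases for PGSC0003DMG400005113 (the short PR1 transcript), 764 bases for PGSC0003DMG400005112 (the basic PR-1 transcript) and 763 bases for PGSC0003DMG400005109 (the low-level PR-1 transcript). A further 2 transcripts named PR1 protein, PGSC0003DMG400005115 and PGSC0003DMG400005116, are listed at 8 weeks alone.

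The study compared leaf transcripts of potato (Solanum tuberosum) cultivar Desiree between normal and high temperature, early and late in growth. Plantlets raised in sterile culture were moved to soil, with days of 12 h light followed by nights of 12 h. Normal temperature (NT) meant 22 °C by day and 16 °C by night, and high temperature (HT) meant 35 °C and 29 °C. Poly(A) RNA of the upper 5 leaves was sequenced from 3 libraries in each of 4 groups: NT for 3 weeks, HT for 3 weeks, NT for 8 weeks and HT for 8 weeks. The labels do not say whether the 3 libraries of a group came from separate plants, so the errors given measure the spread between these libraries, which may be technical. Leaves of 3 and of 8 weeks differ in plant age and in the length of the treatment together, and the 2 cannot be told apart.

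PR-1 proteins are small secreted proteins that plants release into the space between their cells when pathogens attack. In tobacco and Arabidopsis the acidic forms are the classic readout of salicylate, the defence hormone that acts through the co-activator NPR1 and TGA transcription factors, while basic forms of tobacco also answer to ethylene and wounding. Members of such a family resemble each other, so reads may be shared between them, and the sources used here do not say how the authors' counting treated such reads.

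The tables are selections made by the authors on these same libraries, 1447 transcripts at 3 weeks and 5571 at 8 weeks, with 580 in both, so calls made from them are not independent evidence of a change. Library totals ran from 52514661 to 66602938 counts. Transcripts that define the leaf were abundant throughout: the 38 leaf markers listed at 8 weeks summed to between 9080 and 10300 CPM (counts scaled to the library total) at NT. At HT they summed to 69140, 30410 and 35220 CPM in replicates 1, 2 and 3, with all 38 called higher by edgeR. The 9 leaf markers listed at 3 weeks summed to between 5676 and 6450 CPM at NT and between 2538 and 3006 CPM at HT. Of these 9, 4 were called higher at HT by edgeR and 5 lower, so the lower sum does not hold for each of them. Patatin transcripts, markers of the tuber, summed to far less, 54.2 to 74.7 CPM at NT and 102.7 to 253.9 CPM at HT over the 8 listed at 8 weeks. No listed leaf, tuber or senescence marker was at 0 in any group. In whole leaves, fewer cells that make a transcript and less of it per cell cannot be told apart.

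The long PR1 transcript, PGSC0003DMG400005111, was scarce in young leaves at normal temperature and abundant in old ones. At 3 weeks it stood at 1.96, 2.35 and 1.54 RPKM (reads per kilobase of transcript, scaled to the library total) in the NT libraries and at 14.8, 22.5 and 25.7 RPKM in the HT libraries. At 8 weeks it stood at 190, 206 and 349 RPKM at NT and at 7.01, 35.2 and 73.0 RPKM at HT. The order of the groups was NT at 8 weeks, then HT at 8 and HT at 3 weeks, whose libraries overlap, then NT at 3 weeks, which overlaps with no other group. Group means were 1.95 ± 0.407, 21.0 ± 5.62, 248 ± 87.6 and 38.4 ± 33.1 RPKM (SD, n = 3) for NT and HT at 3 weeks and NT and HT at 8 weeks.

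The short PR1 transcript, PGSC0003DMG400005113, which shares the product name of the long one, had the highest levels per length of the 4 at 8 weeks at NT. It measured 3.82, 2.55 and 1.79 RPKM at NT and 14.4, 22.7 and 31.2 RPKM at HT at 3 weeks. At 8 weeks it measured 257.7, 248.1 and 447.7 RPKM at NT and 9.05, 40.5 and 77.7 RPKM at HT. Its groups stood in the same order as those of the long transcript, again with overlap between the HT groups alone. The NT mean at 8 weeks was 318 ± 113 RPKM against 2.72 ± 1.03 RPKM at 3 weeks (SD, n = 3).

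The basic PR-1 transcript, PGSC0003DMG400005112, lay lower but kept the same order of groups. Its 3-week levels were 0.734, 0.80 and 0.227 RPKM at NT and 2.65, 3.37 and 4.33 RPKM at HT. Its 8-week levels were 31.9, 33.9 and 66.1 RPKM at NT and 1.32, 6.11 and 12.2 RPKM at HT. The highest NT library at 8 weeks was replicate 3, as for both PR1 transcripts, and the lowest HT library at 8 weeks was replicate 1, as for both PR1 transcripts.

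The low-level PR-1 transcript, PGSC0003DMG400005109, differed from these 3. It had 2, 3 and 3 counts in the NT libraries at 3 weeks and 3, 44 and 15 counts in the HT libraries, or 0.0459 to 0.0683 RPKM and 0.0608 to 0.951 RPKM. At 8 weeks it had 95, 105 and 47 counts at NT and 2, 2 and 14 counts at HT, or 1.07 to 2.37 RPKM and 0.0394 to 0.308 RPKM. Only NT at 8 weeks stood clear of the other groups, since NT at 3 weeks, HT at 3 weeks and HT at 8 weeks overlap. Within NT at 8 weeks, replicate 3 was its lowest library, whereas it was the highest for the other members.

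**Figure D1:**
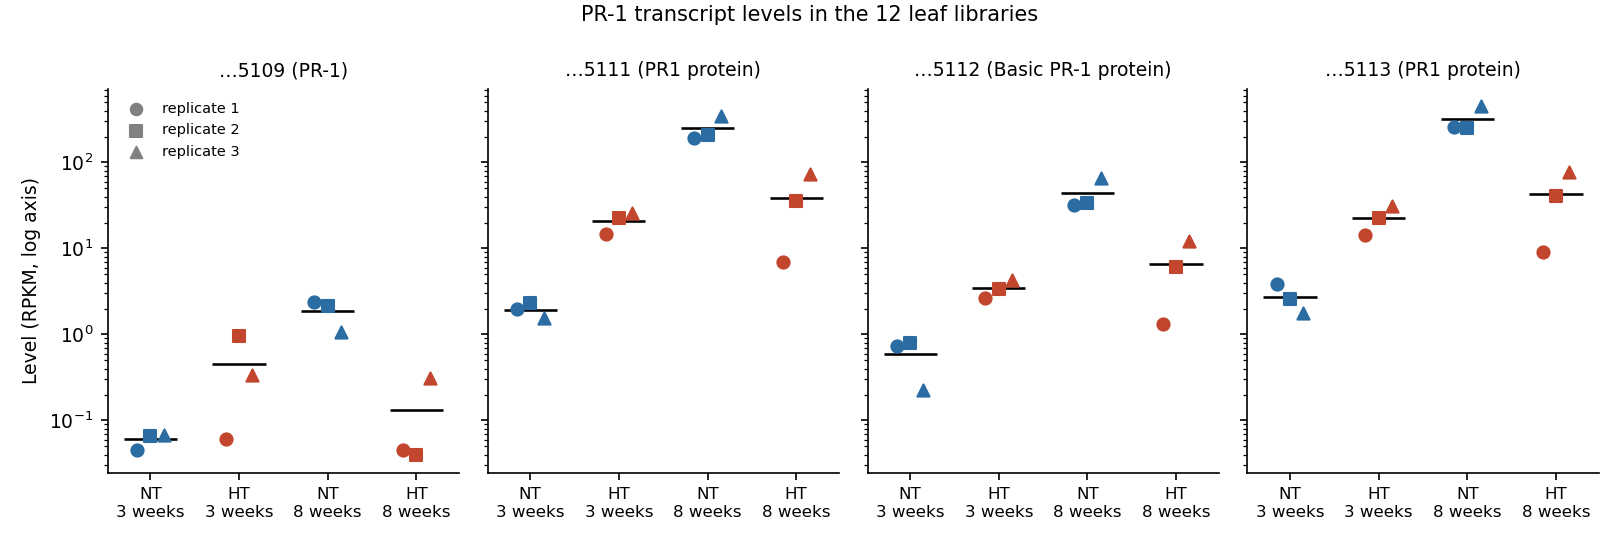
Levels of the 4 PR-1 transcripts (RPKM, log axis) in each of the 12 libraries, by temperature and age; each panel title gives the end of the identifier and the product name, symbols mark the replicate, blue is NT, red is HT, and the black line is the arithmetic mean of 3 libraries. The 3 more abundant transcripts peak at NT at 8 weeks and are lowest at NT at 3 weeks, and for these 3 the libraries of HT at 8 weeks are the most spread.

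The first comparison asked what high temperature did at 3 weeks. The 3 HT libraries lay above the 3 NT libraries for 3 of the 4 PR-1 transcripts, where 60.5% of all 1447 listed transcripts did so. Since the members were picked by this contrast, nothing is read from that count. The log2 change of HT over NT was 3.03 ± 0.34 (standard error) for the long PR1 transcript, 8.15-fold. It was 2.66 ± 0.43 for the short PR1 transcript, 6.31-fold, and 2.15 ± 0.50 for the basic PR-1 transcript, 4.43-fold. These 3 lay above the median of all 1280 transcripts with enough counts to fit, 1.66. The low-level PR-1 transcript did not pass the filter on low counts. Fitted without that filter its log2 change was 2.45 ± 0.998 (5.47-fold). Its HT replicate 1, with 3 counts, lay within the NT libraries. In the authors' deposited table its p-value was 0.007572, near the limit of 0.01 under which all listed transcripts fall.

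The size of the 3-week change depends on how the libraries are scaled, and most listed transcripts are higher at HT. With DESeq2 size factors, estimated from the listed transcripts alone, the median change of the 3 PR-1 transcripts that passed the filter was 1.43 in place of 2.66, while the median over all transcripts fitted went from 1.66 to 0.44. All 4 PR-1 changes remained above 0 under each alternative that gave a value, from 0.937 for the basic PR-1 transcript to 3.43 for the long PR1 transcript.

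At 8 weeks the sign was the opposite. In all 4 PR-1 transcripts each HT library lay below each NT library, where 35.8% of the 5571 listed transcripts did so. The log2 changes of HT over NT were -3.91 ± 0.91 for the low-level PR-1 transcript (15-fold lower), -3.00 ± 0.73 for the short PR1 transcript (8.01-fold lower), -2.84 ± 0.76 for the basic PR-1 transcript (7.18-fold lower) and -2.79 ± 0.77 for the long PR1 transcript (6.92-fold lower). The median over all 5176 transcripts fitted was 1.79, on the other side of 0. The standard errors are larger than at 3 weeks for the 3 abundant members. Between the highest and the lowest HT library the level differed 10.4-fold for the long PR1 transcript, 9.21-fold for the basic PR-1 transcript and 8.59-fold for the short PR1 transcript.

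Replicates 1 and 3 of HT at 8 weeks set much of that spread. Without replicate 3, the HT library with the most PR-1, the log2 changes were -5.47, -3.78, -3.66 and -3.65 for the low-level, short, basic and long transcripts. Without replicate 1 they were -3.52, -2.52, -2.36 and -2.30. Replicate 1 also had the highest sum of leaf markers, 69140 CPM against 30410 and 35220 CPM in the others, and the part of this in the result was not tested. Among the NT libraries, replicate 3 was highest for the 3 abundant PR-1 transcripts. Its 15 listed senescence markers summed to 1282 CPM, against 3425 and 3300 CPM in replicates 1 and 2, and to between 310.6 and 541.6 CPM at HT. They were matched by product name and include general cysteine proteases and a cysteine protease inhibitor, so their sum does not measure senescence alone. Of the 15, 8 were called higher and 7 lower at HT by edgeR, and the part of these in the result was not tested. With DESeq2 size factors the median PR-1 change was -4.11 in place of -2.92, and that over all transcripts fitted was 0.49 in place of 1.79.

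The 2 PR1 transcripts listed at 8 weeks alone were also lower at HT. PGSC0003DMG400005115 measured 1.60, 2.72 and 5.54 RPKM at NT and 0.457, 1.44 and 0.646 RPKM at HT. PGSC0003DMG400005116 measured 6.69, 6.01 and 14.6 RPKM at NT and 0.547, 3.08 and 2.18 RPKM at HT. Neither overlapped between the temperatures, and replicate 3 was again the highest NT library. Both passed edgeR's quasi-likelihood test, with log2 changes of -2.04 ± 0.71 (adjusted p = 0.02264) and -2.32 ± 0.71 (adjusted p = 0.01348), in a table in which 38% of the transcripts tested were called lower and 97.3% were called in either direction. Without NT replicate 3 both calls were lost, at -1.44 (edgeR adjusted p = 0.089) and -1.81 (edgeR adjusted p = 0.054), and that of PGSC0003DMG400005115 was also lost without HT replicate 3 (-1.88, edgeR adjusted p = 0.064). Their levels at 3 weeks were not analysed here.

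Opposite signs at the 2 ages were the less common pattern. Of the 580 transcripts in both tables, 92 (15.9%) were higher at HT at 3 weeks and lower at 8 weeks, the PR-1 transcripts among them. Another 55 (9.48%) had the reverse pattern, 270 (46.6%) were higher at both ages and 163 (28.1%) lower at both. The 4 members were picked for this combination, so their place in it is no finding.

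**Figure D2:**
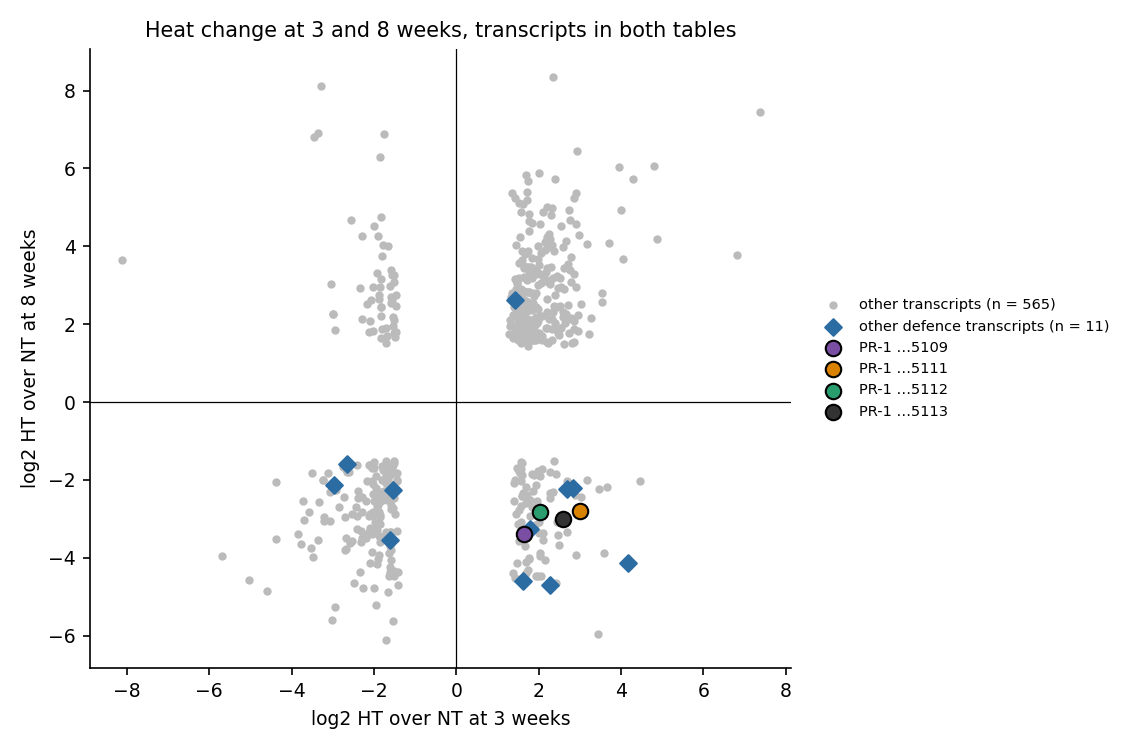
Log2 change of HT over NT at 3 weeks (x axis) and at 8 weeks (y axis) for the 580 transcripts in both tables. Values are from log2 of the arithmetic group mean of CPM plus 0.05, with the heat scaling applied. Circles are PR-1 transcripts named by the end of the identifier, diamonds other defence transcripts, grey points all others. The 4 PR-1 transcripts lie in the lower right, and the empty bands around 0 come from the authors' limit of 1.5 on the absolute log2 change. The low-level PR-1 transcript is drawn at 1.64 on the x axis, below its fitted value, because of the added 0.05 CPM.

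The levels show where the sign change sits. At NT the summed level of the 4 PR-1 transcripts was 5.32 ± 1.52 RPKM at 3 weeks and 612 ± 218 RPKM at 8 weeks (SD, n = 3). At HT it was 47.6 ± 14.9 RPKM at 3 weeks and 87.5 ± 73.1 RPKM at 8 weeks. The NT groups did not overlap between the ages and the HT groups did.

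Each member, at NT, was higher in each 8-week library than in each 3-week library, where 37.4% of the 580 shared transcripts were. The log2 difference of 8 over 3 weeks at NT, on the scale of mean log2 CPM, was 6.96 ± 0.33 for the long PR1 transcript, a geometric 125-fold. It was 6.88 ± 0.42 for the short PR1 transcript (118-fold), 6.34 ± 0.68 for the basic PR-1 transcript (81.2-fold) and 4.89 ± 0.41 for the low-level PR-1 transcript (29.7-fold). The median of the 576 other shared transcripts was 0.474, with 356 of them (61.8%) higher at 8 weeks. On the scale with 0.05 CPM added, 9 of those 576 had a difference as large as the long PR1 transcript, 10 as large as the short one, 24 as large as the basic one and 96 as large as the low-level one. With TMM scaling over the listed transcripts the median PR-1 difference was 4.82, and with DESeq2 size factors 5.41, in place of 6.61.

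At HT no member separated the ages, whereas 23.4% of the shared transcripts lay wholly above and 14.5% wholly below at 8 weeks. The log2 differences of 8 over 3 weeks at HT were 0.36 ± 1.03 for the long PR1 transcript, 0.45 ± 0.97 for the basic PR-1 transcript and 0.50 ± 0.97 for the short PR1 transcript. The low-level PR-1 transcript had -1.72 ± 1.5. The 3 positive values are smaller than their standard errors and turned negative, at -0.38, -0.25 and -0.179 for the long, basic and short transcripts, without HT replicate 3 of 8 weeks. Without HT replicate 1 of 8 weeks they were 1.31, 1.35 and 1.37. The difference of the low-level PR-1 transcript ran from -2.80 without HT replicate 1 of 3 weeks to -0.812 without HT replicate 2 of 3 weeks.

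The other transcripts that share this sign change had a like course. All 88 of them were higher at 8 than at 3 weeks at NT, with a median log2 difference of 5.43, and their median at HT was -0.325. The differences at NT and HT of a transcript are tied to its heat effects, since the same 12 libraries give both.

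**Figure D3:**
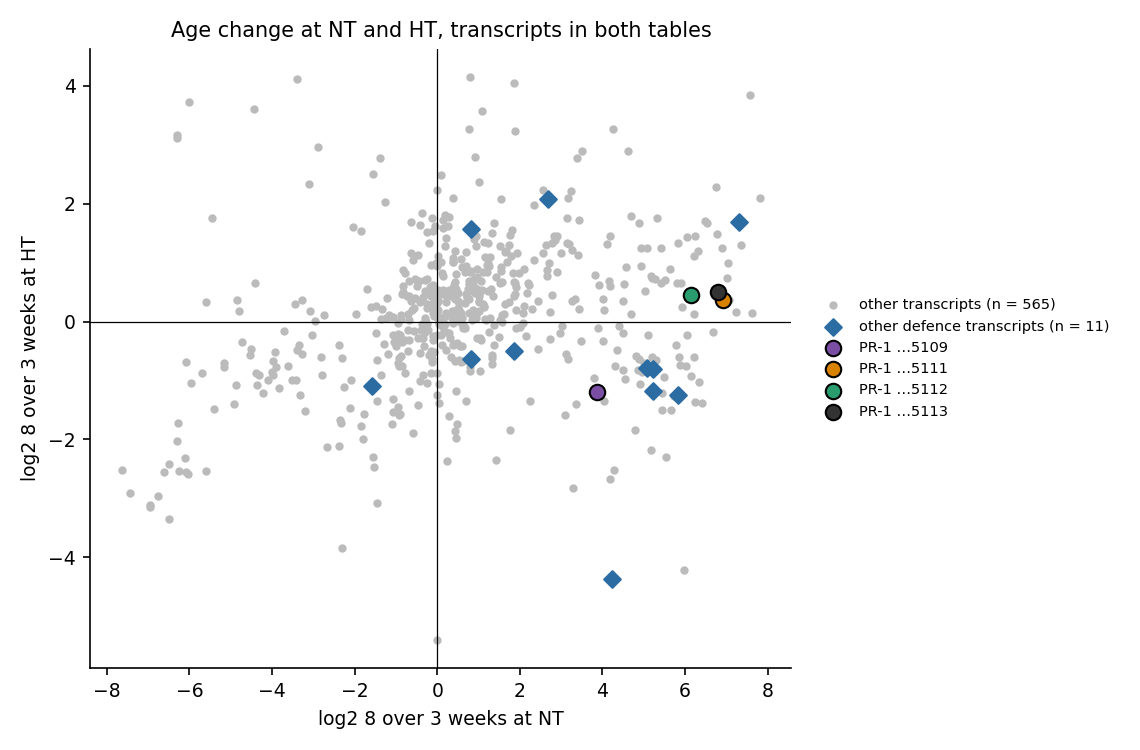
Log2 difference of 8 over 3 weeks at NT (x axis) and at HT (y axis) for the 580 transcripts in both tables, from group means of log2(CPM + 0.05) over library totals; circles are PR-1 transcripts named by the end of the identifier, diamonds other defence transcripts, grey points all others. The 3 abundant PR-1 transcripts lie far right at 6.14 to 6.92 on the x axis and between 0.36 and 0.50 on the y axis.

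For the 3 abundant members the proportions varied less than the levels. Between the highest and the lowest of the 12 libraries the level in RPKM differed 227-fold, 250-fold and 290-fold for the long, short and basic transcripts, and the share of the family's summed RPKM 1.55-fold, 1.32-fold and 2.21-fold. For the low-level PR-1 transcript the level differed 60.2-fold and the share 40-fold. The long and short transcripts make up most of the sum, which in itself limits how far their shares can vary. The share of the low-level transcript has no such limit and rests on few counts in several libraries. Per length, the short PR1 transcript made up 44.3% to 58.3% of the summed RPKM of the 4 members over the 12 libraries, and the long PR1 transcript 29.8% to 46.3%. The basic PR-1 transcript made up 6.27% to 13.9% and the low-level PR-1 transcript 0.0481% to 1.92%. The ratio of the long PR1 transcript to the basic one stayed between 5.29 and 6.67 in the 9 libraries outside NT at 3 weeks. In NT at 3 weeks, where the basic transcript had 10 to 36 counts, it ran from 2.67 to 6.75.

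Libraries of 1 group also departed from their mean together for the 3 abundant members. The correlation of their deviations from the group means, in log2(CPM + 0.5) over the 12 libraries, was 0.974 to 0.980 between the long, short and basic transcripts. That of the low-level PR-1 transcript with each of them was 0.069 to 0.193. Outside NT at 8 weeks its group means, 0.046 to 0.344 CPM, lie below the added 0.5 CPM, which shrinks its deviations. Its low correlations therefore depend on that addition, and no lack of shared deviation is read from them. These correlations share library totals, and may share reads between similar members, and are given as a description. In log2 CPM with nothing added, the deviations of the 3 abundant members in HT at 8 weeks ran from -1.76 to -1.90 in replicate 1. In replicate 3 they ran from 1.35 to 1.48. The low-level PR-1 transcript followed them there only in part, with -0.85, -1.06 and 1.91 in replicates 1, 2 and 3. In HT at 3 weeks it held 3 counts in replicate 1 and 44 in replicate 2, a 15.7-fold range in CPM.

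**Figure D4:**
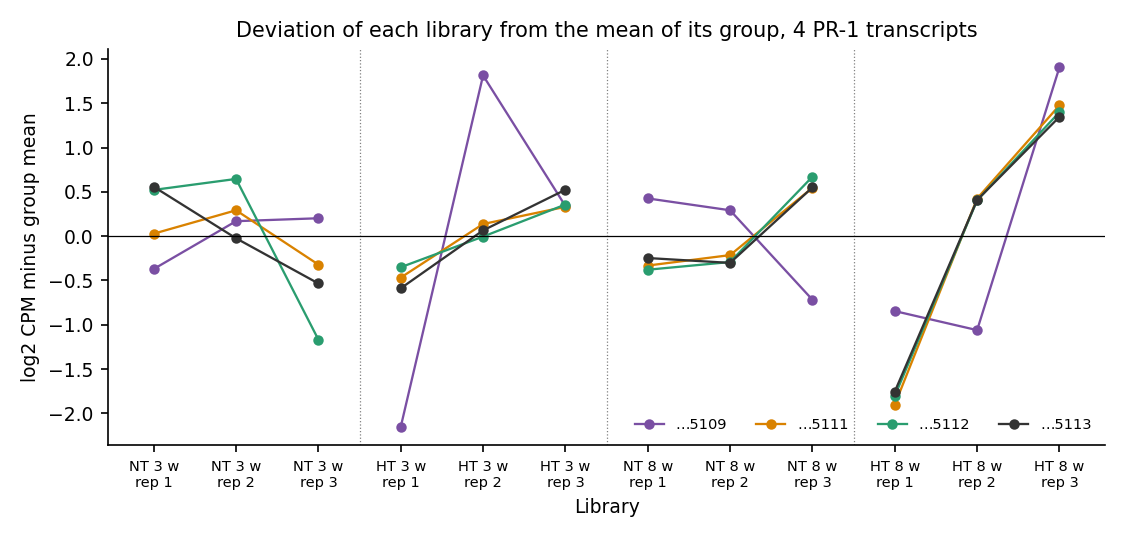
Deviation of each library from the mean log2 CPM of its own group (y axis) for the 4 PR-1 transcripts, named by the end of the identifier, in the 12 libraries (x axis); lines join libraries of a group for legibility and carry no order. The long, short and basic transcripts overlie each other in both 8-week groups and in HT at 3 weeks, while the low-level PR-1 transcript departs from them in NT at 8 weeks and in HT at both ages.

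Among the 576 other shared transcripts, few had the course of the PR-1 mean. Pearson's r of log2(CPM + 0.5) with the mean of the 4 members over the 12 libraries was at least 0.90 for 58 and at least 0.95 for 29, with a median of 0.05. All 58 belong to the 88 with the same sign change. The 4 members were picked for that sign change, so a transcript with so high an r largely has to share it. Nothing is read from this overlap. The 6 most alike with a product name were a sesquiterpene synthase (PGSC0003DMG400010585, r = 0.985), an enzyme class that makes terpenes, a NAC domain protein (PGSC0003DMG400001323, 0.985), of a family of plant transcription factors, and an exostosin (PGSC0003DMG400003358, 0.984). The others were ethylene-responsive proteinase inhibitor 1 (PGSC0003DMG400003056, 0.982), a lactosylceramide 4-alpha-galactosyltransferase (PGSC0003DMG400019126, 0.981) and leucoanthocyanidin dioxygenase (PGSC0003DMG400026277, 0.979), an enzyme of anthocyanin synthesis.

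The sesquiterpene synthase shows how close the courses are. It measured 0.981, 1.2 and 1.48 CPM at NT and 11, 11.9 and 14.9 CPM at HT at 3 weeks, and 235, 214 and 299 CPM at NT and 4.55, 27.2 and 20.9 CPM at HT at 8 weeks. Replicate 3 was its highest NT library and replicate 1 its lowest HT library at 8 weeks, as for the long PR1 transcript. Ethylene-responsive proteinase inhibitor 1 measured 118, 104 and 192 CPM at NT and 2.89, 8.98 and 15.6 CPM at HT at 8 weeks, with the libraries in the order of the long PR1 transcript at HT. Within groups its deviations correlated at 0.944 with those of the PR-1 mean and those of the exostosin at 0.943. Deviations correlated at 0.80 or more for 38 of the 576 transcripts, against a median of 0.10.

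The low-level PR-1 transcript had other close neighbours, looked up after its values were seen. Its highest r among the 576 was with an osmotin (PGSC0003DMG400003057, r = 0.972), a PR-5 protein that acts on fungal membranes. That osmotin measured 0.124, 3.04 and 1.41 CPM in HT at 3 weeks, with the same low first replicate, and 12.2, 12.8 and 10.1 CPM in NT at 8 weeks. Inactive purple acid phosphatase 27 (PGSC0003DMG400022979, 0.961) and Alpha-DOX1 (PGSC0003DMG400000505, 0.960), an alpha-dioxygenase that oxidises fatty acids, came next. The deviations of the osmotin from its group means correlated at 0.827 with those of the low-level PR-1 transcript and at 0.302 with the mean of the other 3. All these values are in log2(CPM + 0.5). Outside NT at 8 weeks the group means of the low-level transcript, 0.046 to 0.344 CPM, lie below that addition. The r values therefore rest largely on NT at 8 weeks against the other groups. The correlations of deviations depend on the addition, and no shared deviation is read from them. The phosphatase had 4, 1 and 0 counts in NT at 3 weeks.

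Other classes of PR proteins and the salicylate pathway were read by product name, so transcripts of a class listed under other names are left out. At 3 weeks 97.5% of the 1280 transcripts tested were called by edgeR, 60.3% higher and 37.2% lower, so the direction of a call says more than the call. Of 19 defence transcripts other than PR-1, 17 were tested, 10 were called higher and 6 lower. Their median log2 change was 1.83 beside 1.66 for all tested, so in this fit the list lay near the background at this age. With DESeq2, 6 were called higher, where 204 of all 1280 transcripts tested were, so the place of the list beside the background depends on the scaling. Beta-1,3-glucanases (PR-2), which cut a fungal wall polymer, had 2 higher and 0 lower of 3. The third, the acidic isoform GI9 (PGSC0003DMG400000519), had a log2 change of -1.75 and was not called (edgeR adjusted p = 0.056). Chitinases and WIN proteins had 4 higher and 2 lower of 6, and osmotins (PR-5) 3 and 1 of 4. The PR-10 list had 0 and 2 of 2, and at this age it holds only transcripts named major latex, none named PR10. WRKY factors had 1 higher and 1 lower of 2 tested, and the jasmonate and wounding list 3 and 3 of 6. No transcript of the salicylate list is in the 3-week table. Their levels at that age were not analysed here.

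The named defence transcripts at 3 weeks included both directions. Wound-induced protein WIN1 (PGSC0003DMG400019435) rose from 17.5 ± 4.29 to 124 ± 36.1 CPM (SD, n = 3; log2 2.42 ± 0.31, edgeR adjusted p = 0.00106). Class I chitinase (PGSC0003DMG400010283) rose from 1.74 ± 0.434 to 15.2 ± 5.43 CPM (log2 2.72 ± 0.40, edgeR adjusted p = 0.0013). An osmotin (PGSC0003DMG400013227) fell from 45.0 ± 23.6 to 9.40 ± 2.66 CPM (log2 -2.66 ± 0.46, edgeR adjusted p = 0.00202). The 2 called glucanases, PGSC0003DMG400040260 and PGSC0003DMG400030414, had log2 changes of 1.82 and 1.71 and lost their calls with DESeq2 (0.608 and 0.504).

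At 8 weeks most defence transcripts tested were lower at HT. Of 87 defence transcripts other than the 4 members, 82 were tested, 21 were called higher and 59 lower, with a median log2 change of -2.24 beside 1.79 for all tested, where 59.3% of the 5176 tested were called higher and 38% lower. With DESeq2, 12 were called higher, where 1414 of all 5176 transcripts tested were. WRKY factors, which bind the promoters of many defence genes, had 2 higher and 20 lower of 23, and osmotins and thaumatins 1 and 12 of 13. Beta-1,3-glucanases had 9 and 11 of 20, chitinases and WIN proteins 3 and 5 of 8, and the PR-10 list 2 and 2 of 4. The PR-10 list holds major latex transcripts beside PR10, so its split is not that of PR10 alone. The jasmonate and wounding list, the counterpart to the salicylate list, had 14 higher and 12 lower of 27.

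Within the PR-10, chitinase and glucanase lists the largest changes went in both directions. PR10 (PGSC0003DMG402001494) fell from 252 ± 107 to 26.2 ± 12.0 CPM (SD, n = 3; log2 -3.36 ± 0.53, edgeR adjusted p = 0.0017) and class IV chitinase (PGSC0003DMG400025063) from 13.5 ± 3.19 to 0.617 ± 0.256 CPM (log2 -4.55 ± 0.53, edgeR adjusted p = 0.000806). The largest changes of the PR-10 list were those of 2 major latex transcripts, which rose. PGSC0003DMG400012100 went from 2.27 ± 1.31 to 75.6 ± 28.7 CPM (log2 4.96 ± 0.60, edgeR adjusted p = 0.000874), and PGSC0003DMG400004131, with 0 to 6 counts in the NT libraries, had a log2 change of 5.24 (edgeR adjusted p = 0.00284). The chitinases PGSC0003DMG400004593 and PGSC0003DMG400019883 rose by log2 changes of 3.54 and 2.76 (edgeR adjusted p = 0.00109 and 0.0015). The glucanase PGSC0003DMG400000689 rose by 4.69 on the log2 scale (edgeR adjusted p = 0.00156), with 87, 22.1 and 22.2 CPM in the HT libraries. A second glucanase, PGSC0003DMG400002303, rose by 4.01 (edgeR adjusted p = 0.00891). The acidic glucanase isoform GI9 (PGSC0003DMG400000519) fell from 2.27 ± 0.327 to 0.164 ± 0.2 CPM (log2 -3.87 ± 1.09, edgeR adjusted p = 0.0102). A single osmotin, PGSC0003DMG400000402, rose, by 5.43 ± 1.33 (edgeR adjusted p = 0.00619), and its HT libraries held 113, 5.93 and 5.07 CPM. Without HT replicate 1 its log2 change was 2.52.

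The salicylate list had 4 transcripts higher and 7 lower of 12 tested at 8 weeks. The 4 that rose are named here after their values were seen. Isochorismate synthase (PGSC0003DMG400033038), which makes a precursor of salicylate, rose from 4.51 ± 0.923 to 32.6 ± 10.5 CPM (SD, n = 3; log2 2.76 ± 0.43, edgeR adjusted p = 0.001633). The carboxyl methyltransferases PGSC0003DMG400029623 and PGSC0003DMG400029624, which turn salicylate into methyl salicylate, rose by log2 changes of 2.57 ± 0.64 and 1.88 ± 0.60 (edgeR adjusted p = 0.006513 and 0.01646). Salicylic acid-binding protein 2 (PGSC0003DMG400000757), known in tobacco as the esterase that turns methyl salicylate back, rose by 2.14 ± 0.43 on the log2 scale (edgeR adjusted p = 0.003328).

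A further carboxyl methyltransferase of the list, PGSC0003DMG400019111, did not pass the filter on low counts, with 0, 8 and 4 counts at NT and 73, 8 and 10 counts at HT.

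The 7 that fell include an enzyme, phenylalanine ammonia-lyase 1, as well as TGA factors and proteins named for induction by salicylate or in the hypersensitive response. Salicylic acid-induced protein 19 (PGSC0003DMG400022134) measured 484, 560 and 235 CPM at NT and 7.04, 6.71 and 11.7 CPM at HT, a log2 change of -5.75 ± 0.56 (edgeR adjusted p = 0.000589). Its groups lay far apart, and replicate 3 was its lowest NT library, unlike the abundant PR-1 transcripts. TGA10 transcription factor (PGSC0003DMG400023678) fell by 4.78 on the log2 scale and Hin1 (PGSC0003DMG400028235) by 4.49 ± 0.70. Phenylalanine ammonia-lyase 1 (PGSC0003DMG400031457), the entry enzyme of the phenylpropanoid pathway, had a log2 change of -1.70 ± 0.64 (edgeR adjusted p = 0.0301). NHL25 (PGSC0003DMG400021454) did not pass the test, at -1.88 (edgeR adjusted p = 0.09795).

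**Figure D5:**
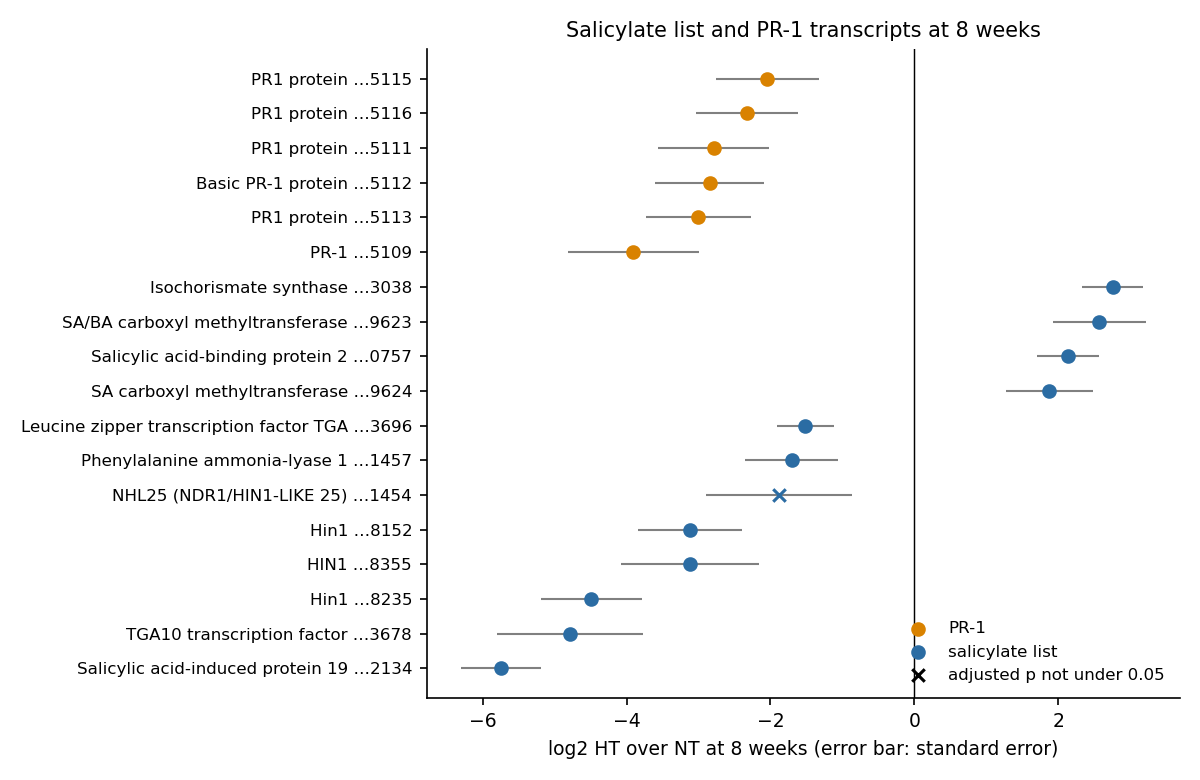
Log2 change of HT over NT at 8 weeks (x axis) with its standard error for the 6 PR-1 transcripts (orange) and the 12 tested transcripts of the salicylate list (blue), named by product and the end of the identifier; a cross marks an edgeR adjusted p that is not under 0.05. The 6 PR-1 transcripts lie between -3.91 and -2.04, and the salicylate list runs from -5.75 for salicylic acid-induced protein 19 to 2.76 for isochorismate synthase.

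The interaction of temperature and age, the difference of the heat effect between the ages, was fitted on transcripts other than the 4 members. Over the 576 of 580 shared transcripts with enough counts, 33.7% were called, 17.9% with a lower effect at 8 weeks and 15.8% with a higher one. Of the 11 other defence transcripts in both tables, 6 had a lower effect at 8 weeks and 0 a higher one by edgeR (1 by DESeq2). All 6 were higher at HT at 3 weeks and lower at 8 weeks. The authors listed a transcript only with an absolute log2 change of at least 1.5 at that age in these same libraries. For opposite signs the difference is therefore large by selection, and these calls are not independent evidence. The 6 are an osmotin (PGSC0003DMG400003043), with a difference in log2 change of -5.08 ± 0.97 (edgeR adjusted p = 0.001722), a second osmotin (PGSC0003DMG400003057, -7.41 ± 1.47), Osmotin OSML15 (PGSC0003DMG400003058, -8.96 ± 1.60), class I chitinase (PGSC0003DMG400010283, -4.95 ± 0.89), basic beta-1,3-glucanase (PGSC0003DMG400040260, -5.10 ± 1.12) and a WRKY factor (PGSC0003DMG400017628, -8.21 ± 1.11). Class I chitinase stood at 277 ± 25.6 CPM in NT and 63.0 ± 54.9 CPM in HT at 8 weeks (SD, n = 3), so it too was highest in old leaves at NT. The median log2 difference of 8 over 3 weeks of the 11 was 4.22 at NT and -0.783 at HT, with 10 of 11 higher at 8 weeks at NT. In the jasmonate and wounding list, 3 of 5 had a lower effect at 8 weeks and 2 a higher one. That list took proteinase inhibitors by name and leaves out multicystatins and transcripts named protease inhibitor. Those left out include heat effects that rise and that fall between the ages, so the split holds only for the names matched.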

How the data were processed

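Groups and replicate numbers come from the sample titles. The authors' deposited tables give raw counts per transcript and library, transcript length, the maximum group mean in RPKM, a log2 fold change, a signed fold change (a score) and p-values with false discovery and Bonferroni forms, per the file headers. Which aligner, counting program and genome build made them is not given in the sources used here. Of the listed identifiers, 0 were found in the reference gene table, and product names are those of the files.

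Library totals were solved from the authors' RPKM values, counts and lengths (largest relative misfit 3.1e-15). The authors' log2 fold changes departed from counts over these totals by 0.402 at 3 weeks and 0.097 at 8 weeks, and this shift was applied to HT against NT; levels and age differences use the totals alone, so a fitted log2 change of HT over NT lies lower, as a signed value, than that of the RPKM means: rises come out smaller and falls larger. Changes were fitted with edgeR 4.0.16 in R 4.3.3 (quasi-likelihood F test, filterByExpr, Benjamini-Hochberg over each whole table, threshold 0.05). Heat effects were compared between ages through a temperature by age term fitted to 12 libraries. The standard error of a fitted change is its size divided by the square root of F. Alternatives were DESeq2 1.42.0, TMM, totals without the shift, no filter, a replicate block and leaving out each library. The fits were also run on simulated counts in which most transcripts had no change. In the real tables most transcripts were called at each age, so that run gives no error rate for these data.

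The members and gene lists were chosen with earlier results of these data known. Genes named are the PR-1 transcripts, the 6 most alike to their mean, and up to 3 called transcripts of each list and age with the largest absolute change and a mean of at least 10 counts; exceptions are stated.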

Additional observations from a re-analysis of the deposited data

Results flagged for a closer look

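For 3 of the 4 PR-1 transcripts each HT library lay above the NT mean at 3 weeks and below it at 8 weeks, with the heat scaling applied. They were chosen for this change of sign and the difference was not tested. Over all 580 shared transcripts 85 (14.7%) had the same pattern, so it is not particular to PR-1. The log2 changes of the 3 at 8 weeks were -2.79 (PGSC0003DMG400005111), -2.84 (PGSC0003DMG400005112) and -3.00 (PGSC0003DMG400005113). It was not met by the low-level PR-1 transcript, whose HT replicate 1 of 3 weeks held 3 counts and lay below the scaled NT mean.

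By the edgeR interaction term, 6 defence transcripts were called for a heat effect that differed between the ages. They are Osmotin OSML15 (-8.96), the WRKY factor PGSC0003DMG400017628 (-8.21), the osmotins PGSC0003DMG400003057 (-7.41) and PGSC0003DMG400003043 (-5.08), basic beta-1,3-glucanase (-5.10) and class I chitinase (-4.95). All 6 have opposite signs at the ages and were listed by their changes in these same libraries, so the calls are not independent evidence. In the jasmonate and wounding list a lipoxygenase (PGSC0003DMG400010859) had -6.02, a second one (PGSC0003DMG400020999) 1.77, and a proteinase inhibitor CEVI57 (PGSC0003DMG400015289) 7.21. Of the 5 transcripts of that list tested, 3 had a lower effect at 8 weeks and 2 a higher one, so not all the lower ones are named here.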

How the results depend on the processing

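The sign of each heat effect of the 4 PR-1 transcripts held under each alternative that gave a value. Their median log2 change at 3 weeks, over those that passed the filter in each fit, was 2.66. It was 1.43 with DESeq2 and 2.00 with TMM, and ran from 2.36 to 2.94 with a library left out; at 8 weeks it was -2.92 and ran from -3.72 to -2.44. The median age difference at NT, 6.61, was 5.41 with DESeq2 size factors and 4.82 with TMM. The median over all transcripts fitted moved with the scaling, at 3 weeks from 1.66 to 0.44 with DESeq2 and 1.07 with TMM, and the share of calls that were higher went from 61.9% to 29.7% with DESeq2. At 8 weeks that share went from 60.9% to 40.7%. The median age difference at HT, 0.405, ran from -0.315 to 1.33 with a library left out, and for the long, basic and short transcripts from -0.38 to 1.31, -0.25 to 1.35 and -0.179 to 1.37, below 0 without HT replicate 3 of 8 weeks. Defence calls that were higher went from 10 to 6 at 3 weeks and from 21 to 12 at 8 weeks with DESeq2. Over all transcripts tested, higher calls went from 772 to 204 at 3 weeks and from 3067 to 1414 at 8 weeks. Defence transcripts with a higher effect at 8 weeks went from 0 to 1 with DESeq2 and with TMM. The cause was not tested. Deviations of same-numbered NT and HT libraries correlated at -0.06 to 0.16, and those of differently numbered ones at -0.19 to 0.16. With 3 libraries in a group this cannot decide whether the numbers mark paired samples. With the replicate block the median PR-1 change was 2.44 at 3 weeks and -3.31 at 8 weeks. With 2 to 3 counts in several libraries, the low-level PR-1 transcript is limited by depth.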
